A study of Mus musculus with 2 samples.

Results

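Heme is an iron-containing porphyrin that serves as the working group of cytochromes and many other proteins. It is made in a chain of enzyme steps that begins and ends in mitochondria and passes through the cytosol. Alas1, the ubiquitous 5-aminolevulinate synthase, carries out the rate-limiting step, in which glycine and succinyl-CoA are joined. Alad, Uros and Urod then act in the cytosol, Cpox and Ppox act in mitochondria, and Fech, or ferrochelatase, inserts the iron. Heme oxygenases open the ring and release iron, carbon monoxide and biliverdin. Brown adipocytes are rich in mitochondria, whose respiratory chain depends on heme. The genes described here are the synthesis enzymes Alas1, Alad, Uros, Urod, Cpox, Ppox and Fech and the heme oxygenases Hmox1 and Hmox2. They were taken by their symbols from the FPKM table, and all 9 were found on 1 row each among 23361 genes with values.

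The series holds 1 RNA-Seq library of brown preadipocytes (D0) and 1 of brown adipocytes (D7). Both came from interscapular brown adipose tissue of newborn C57BL/6 mice, and the labels name no altered allele. Per the labels, cells were grown in 20% fetal bovine serum, and both stages were plated 4 days before induction in medium with 10% serum, insulin (0.1 μM) and T3 (1 nM). After D0, indomethacin (0.125 mM), IBMX (0.5 mM) and dexamethasone (2 μg/ml) were added, and cells returned to the plain differentiation medium after 2 days until D7. The labels call the cells primary cultures, whereas the methods of the study describe newborn mice of either sex from a C57BL/6J mother, immortalization with large T, and other amounts of insulin and dexamethasone. FPKM is the number of fragments per kb of transcript, scaled to the size of the library. Here the D7 value was divided by the D0 value, and a gene is called higher from a ratio of 2.0 upward and lower from 0.5 downward. That threshold is the one the methods of the study use. The study's printed fold for Foxo1 is smaller than the ratio given below. Its folds may thus be scaled in another way, and calls here need not match its calls. Since each stage is a single library, there was no replicate check of any difference and no p-value could be computed. Intervals are 95% intervals on the number of fragments behind each value. They cover counting error only and compare these 2 libraries. In bulk RNA, fewer cells of a type and less RNA per cell cannot be told apart.

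By a fit to the deposited values, described below, the FPKM values rested on about 21471824 fragments at D0 and 18266002 at D7. The D7 library carried adipocyte markers. All 8 adipocyte markers above 0 in both libraries were higher at D7, and the other 4, Lep, Ucp1, Elovl3 and Cidea, were listed at 0 at D0. Of 8 preadipocyte markers, 2 were higher and 2 were lower at D7. Macrophage markers also moved, as 12 of 13 were higher at D7 and their summed FPKM was 156 at D0 and 586 at D7. The exception was Cd14, with a ratio of 1.06, and none was listed at 0. Erythroid cells make heme in bulk, and 9 of the 13 erythroid markers in the table were listed at 0 in both libraries, among them the globin genes Hba-a1 and Hbb-b1. Of 5 endothelial markers, 2 were higher and 1 was lower, at a summed FPKM of 0.995 and 2.32. Of 5 skeletal muscle markers, Acta1 was lower, from an FPKM of 45.4 to 1.73, and Myh1 was higher, from 0.0239 to 0.563. Myod1 and Ckm were listed at 0 in both libraries, and Myog at 0 at D0 and on about 1 fragment at D7.

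Upstream sequences of the synthesis genes are shown first, because the text returns to them beside the values. The RefSeq promoter table, on the mouse build GRCm38.p6, held 12 start sites for 7 of the 9 genes. Fech and Hmox1 had no entry. Below are the 250 bases before the upstream start of Alad (chr4:62520064-62520313, minus strand), which was higher at D7, and before the start of Urod (chr4:116994414-116994663, minus strand), which came closest to 2.0-fold without reaching it. The last sequence gives 30 bases before the downstream start of Alas1 (chr9:106247907-106247936, minus strand). They read 5′ to 3′. Capitals mark the E-box CACGTG in Alad and Urod and the core CGCATGCG of the motif of nuclear respiratory factor 1 (NRF-1) in Alas1, both of which read the same on the other strand.
Alad: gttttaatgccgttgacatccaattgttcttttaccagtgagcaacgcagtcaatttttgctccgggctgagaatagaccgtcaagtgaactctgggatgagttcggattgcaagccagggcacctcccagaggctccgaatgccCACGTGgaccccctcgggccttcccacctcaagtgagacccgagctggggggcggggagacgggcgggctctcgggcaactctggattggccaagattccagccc
Urod: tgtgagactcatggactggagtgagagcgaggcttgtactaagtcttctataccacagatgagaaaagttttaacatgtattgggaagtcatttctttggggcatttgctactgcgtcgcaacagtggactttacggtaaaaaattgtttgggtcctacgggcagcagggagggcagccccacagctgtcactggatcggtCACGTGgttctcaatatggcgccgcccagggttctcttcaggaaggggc
Alas1: ccgcacccaaggCGCATGCGcggcggtcac

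The E-box of Alad lay 105 bases before this start, and another lay 28 bases before its downstream start. In Urod it lay 49 bases before the start. Uros held the same letters at the far edge of its window, 250 bases before the start, and exons of the neighbouring gene Bccip cover 196 bases of that window. Of 32851 windows of this length over all genes, 6.02% held an E-box. The NRF-1 core of Alas1 lay 194 bases before the downstream start, but after the upstream start and inside the deposited locus of the gene. It was in no window of the other 6 genes and in 1.55% of all windows. Exons of Alas1 itself and of 4930500F10Rik cover 235 bases of the window, so only the stretch around the motif is shown. The CCAAT box, searched as CCAAT on both strands, was in the windows of Alad, Urod and Ppox and in 33.9% of all windows. The GC box GGGCGG was in windows of Alas1, Alad, Uros, Urod and Hmox2 and in 32.7% of all. TATAAA (12.4% of all windows), TGACNNNGC (10.2%) and AGGTCA (14.0%) had no match in the members' windows. These letters were chosen with the Alas1 sequence and the ratios known, and a match describes the sequence only.

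Of the 9 genes, that of the rate-limiting step had the largest ratio. Alas1 (ENSMUSG00000032786.16, deposited locus on chromosome 9, 106233455 to 106247954, mm10) stood at an FPKM of 32.0 in the D0 library, on about 1732 fragments, and at 133 in the D7 library, on about 6128. D7 was thus the high library, and the intervals of both values, 30.5 to 33.6 and 130 to 137, were far apart. The ratio was 4.16 (95% interval 3.95 to 4.39), larger than that of all but 1159 of the 14986 genes above 0 in both libraries. Within its library Alas1 ranked at place 2516 of 15659 genes above 0 at D0 and at place 649 of 15998 at D7. The erythroid isoform Alas2, which supplies heme for hemoglobin, was near the bottom of both libraries, with FPKM values of 0.0265 (D0) and 0.0312 (D7) on about 1 fragment each. A count of up to 3 fragments was taken as a limit, which for Alas2 lies at FPKM 0.0776 (D0) and 0.0914 (D7), so no difference of Alas2 was detectable at this depth.

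**Figure D1:**
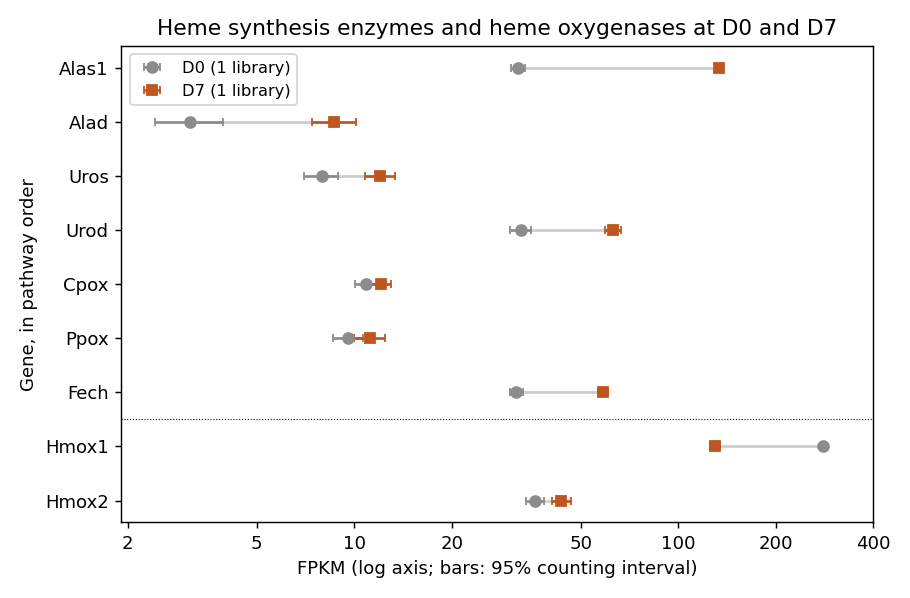
FPKM of the 9 genes (log axis) at D0 (grey circles) and D7 (orange squares), 1 library each, in pathway order with the heme oxygenases under the dotted line; bars are 95% counting intervals. Alas1 moved from 32.0 to 133 and Hmox1 from 280 to 130, so that they met at D7, while Cpox and Ppox lay between 9.59 and 12.1.

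Alad, which joins 2 molecules of aminolevulinate into porphobilinogen, was the other synthesis gene past 2.0-fold. Alad (ENSMUSG00000028393.10, chromosome 4, 62505984 to 62520063) had FPKM values of 3.12 (D0) and 8.67 (D7), from about 69 and 162 fragments. It had the lowest FPKM of the 9 genes in both libraries, although at D7 its interval overlapped that of Ppox. The ratio was 2.78 (2.09 to 3.75), whose interval lay above 2.0 and did not overlap that of Alas1. The deposited locus runs past both annotated ends of Alad, while a transcript of 1206 bases was used. Its fragment numbers and interval are therefore approximate. E-boxes are shown above for Alad and Urod, while Uros also held the motif and Alas1 did not. No link of the motif to the ratios was tested.

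The other cytosolic genes lay between 1.5-fold and 2.0-fold. Urod, the decarboxylase of uroporphyrinogen (ENSMUSG00000028684.14, chromosome 4, 116990217 to 116994375), had FPKM values of 32.6 (D0) and 62.8 (D7). Its ratio was 1.92 (1.75 to 2.12), so counting error alone cannot place it on either side of 2.0. Uros, which closes the porphyrin ring (ENSMUSG00000030979.13, chromosome 7, 133686330 to 133709295), had FPKM values of 7.93 (D0) and 12.03 (D7). Its ratio of 1.52 (1.29 to 1.78) had an interval under that of Alad and overlapping that of Urod.

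The late mitochondrial genes had unequal ratios. Cpox, which oxidizes coproporphyrinogen (ENSMUSG00000022742.6, chromosome 16, 58670208 to 58680389), had FPKM values of 10.9 (D0) and 12.1 (D7). Ppox, which makes protoporphyrin (ENSMUSG00000062729.11, chromosome 1, 171276992 to 171281186), had FPKM values of 9.59 (D0) and 11.2 (D7). Their ratios were 1.11 (0.993 to 1.24) and 1.16 (0.997 to 1.36). Both intervals hold 1, so no difference of Cpox or Ppox was detectable at this depth, although about 682 and 338 fragments stood behind their D0 values. Fech (ENSMUSG00000024588.9, chromosome 18, 64456550 to 64489066), the last enzyme, had FPKM values of 31.7 (D0) and 58.7 (D7). Its ratio of 1.85 (1.75 to 1.97) had an interval above those of Cpox and Ppox and under 2.0. The deposited locus of Fech holds 2901 of the 6571 bases of its annotated transcript, that of Alas1 2699 of 3399 and that of Urod 1199 of 1489.

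**Figure D2:**
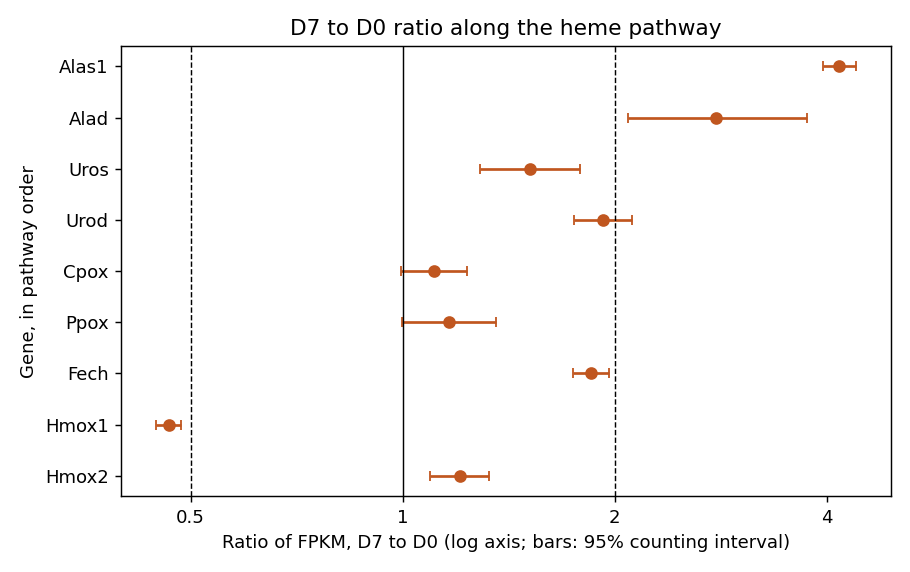
Ratio of FPKM at D7 to D0 (log axis) of the 9 genes in pathway order; points are ratios of 1 library each, bars are 95% counting intervals, and dashed lines mark 0.5 and 2. Alas1 (4.16) and Alad (2.78) lie above 2, Hmox1 (0.466) lies under 0.5, and the intervals of Cpox and Ppox reach 1.

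The inducible heme oxygenase went the other way. Hmox1, which heme and oxidative stress are known to induce (ENSMUSG00000005413.8, chromosome 8, 75093618 to 75100593), went from an FPKM of 280 to 130.2, on about 8345 and 3299 fragments. D0 was the high library, and the intervals of 274 to 286 and 126 to 135 did not meet. The ratio was 0.466 (0.447 to 0.485), or 2.15-fold lower at D7. Hmox1 ranked at place 271 among the genes of D0 and at place 663 at D7, and 1700 genes had a smaller ratio. Macrophages, in which Hmox1 is known to be high, had 12 of 13 markers higher at D7 as given above, and their part in the level of Hmox1 was not tested.

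Hmox2, the constitutive heme oxygenase (ENSMUSG00000004070.15, chromosome 16, 4726361 to 4789935), had FPKM values of 36.2 (D0) and 43.6 (D7). Its ratio was 1.20 (1.10 to 1.33), on about 860 and 879 fragments. Its deposited locus extends past the annotated end of the gene over Cdip1, whose exons overlap those of Hmox2 on the opposite strand, and since the sources do not say whether strand was used in counting, the value of Hmox2 is uncertain. The locus also spans Gm15835 and Gm15859 on the same strand, without shared exon bases. No other gene of the annotation had exons in the deposited loci of the other 8 genes. Hmox1 stood 7.73 times above Hmox2 at D0 and 2.99 times above it at D7. The sum of both oxygenases was 316 at D0 and 174 at D7. Of the biliverdin reductases, which turn biliverdin into bilirubin, Blvrb had FPKM values of 36.5 (D0) and 73.4 (D7), a ratio of 2.01 (1.80 to 2.24), and Blvra of 17.3 and 29.5, a ratio of 1.70 (1.48 to 1.95). The call of Blvrb rests on the threshold, since its interval holds 2.0.

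Counted together, 2 of the 9 genes, or 22.2%, were higher by 2.0-fold, and 1, or 11.1%, was lower. Among all 14986 genes above 0 in both libraries, 18.5% were higher and 13.2% were lower. All 9 genes had an FPKM of at least 1 in both libraries, and among the 11967 genes that reached 1 in at least 1 library, 15.6% were higher and 11.9% were lower. The shares of the 9 genes lie near these shares and are no result about them as a group. All 7 synthesis genes had a ratio over 1, with a median of 1.85, while the median over all 14986 genes was 1.01 and over the 11967 genes 0.981. With such medians a ratio over 1 was common among all genes. The intervals of Cpox and Ppox hold 1, and their ratios were 0.868 and 0.912 under another scaling given below. The 4 genes of mitochondrial steps, Alas1, Cpox, Ppox and Fech, had ratios from 1.11 to 4.16 with a median of 1.47. Ratios of the 3 cytosolic ones, Alad, Uros and Urod, ran from 1.52 to 2.78 with a median of 1.92.

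**Figure D3:**
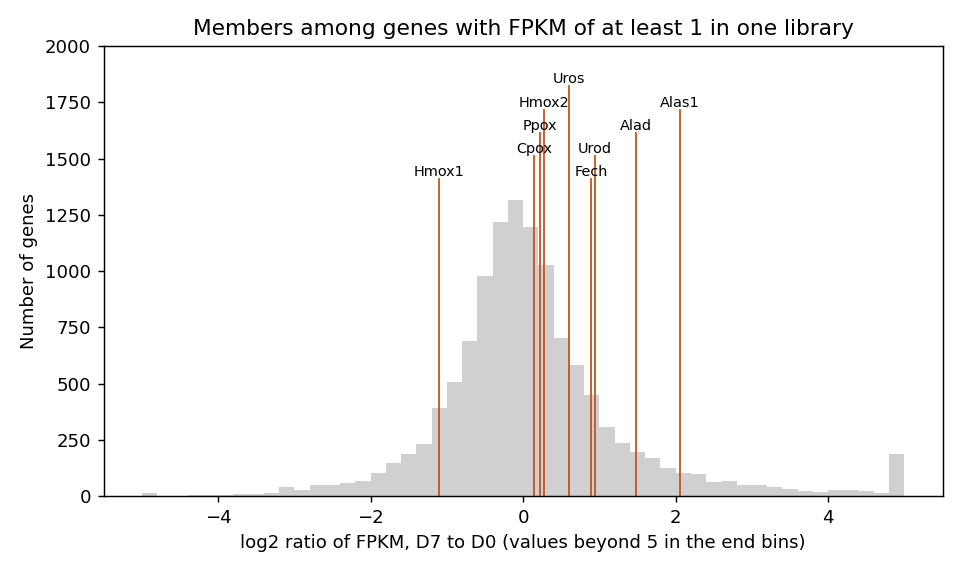
Number of genes (vertical axis) by log2 ratio of FPKM at D7 to D0, in bins, for the 11967 genes above 0 in both libraries with an FPKM of at least 1 in one of them; orange lines place the 9 genes. Alas1 (2.06) and Alad (1.48) stand in the right shoulder and Hmox1 (-1.10) in the left, while the others lie between 0.15 and 0.94.

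Alas1 took a larger share of the pathway's summed FPKM at D7 than at D0. At D0, Urod, Alas1 and Fech had FPKM values of 32.6, 32.0 and 31.7, and the intervals of these neighbours overlapped. At D7, Alas1 stood 2.12 times above Urod and 2.27 times above Fech, and the intervals of Urod and Fech still overlapped. Alas1 made up 25.04% of the summed FPKM of the 7 synthesis genes at D0 and 44.6% at D7. The share of Cpox in that sum was 8.51% and then 4.04%, and that of Ppox 7.50% and then 3.74%. The sum was 128 at D0 and 299 at D7, and without Alas1 it was 95.8 and 165. Among the low genes at D7, the intervals of Cpox, Uros, Ppox and Alad overlapped from each to the next, so their order is not fixed. The distance from the highest to the lowest synthesis gene was 10.5 times at D0 and 15.4 times at D7. Alas1 had 0.114 times the FPKM of Hmox1 at D0 and 1.023 times at D7, where their intervals overlapped.

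The genes nearest to a member in log2 FPKM over the 2 libraries were Ndufs1, Ppa1 and Sucla2 for Alas1, at distances of 0.12, 0.13 and 0.24. For Fech they were Hbp1, Mrpl18 and Mrps34, at distances of up to 0.06. For Hmox1 they were Maged1, Gpx1 and Morf4l2, at distances of up to 0.11. With 2 libraries such a distance compares levels only.

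Of 12 genes for glycine and succinyl-CoA supply and for the turnover of the enzyme, 7 were higher and 1 was lower, with a median ratio of 2.71. For this and the following lists, the shares over all genes above 0 in both libraries were 18.5% higher and 13.2% lower, with a median ratio of 1.01. The subunits of the 2-oxoglutarate dehydrogenase complex, which makes succinyl-CoA, had ratios of 3.81 (Ogdh), 3.33 (Dlst) and 5.79 (Dld). Suclg1 and Sucla2, of succinyl-CoA ligase, had ratios of 3.87 and 4.84, and Suclg2, its other subunit, had 1.87 (1.73 to 2.02), below 2.0-fold. Clpx, a mitochondrial unfoldase known to activate and to degrade ALAS proteins, had FPKM values of 11.1 (D0) and 43.8 (D7), a ratio of 3.96 (3.63 to 4.34), and the protease gene Lonp1 had a ratio of 2.21. Clpp, the protease partner of Clpx, had a ratio of 1.87 (1.68 to 2.08), below 2.0-fold. Shmt2, which forms glycine in mitochondria, was lower, from 37.5 to 18.5, and its ratio of 0.494 (0.452 to 0.539) has an interval that holds 0.5. Slc25a38, the mitochondrial glycine carrier, had FPKM values of 10.9 (D0) and 11.7 (D7), and its interval from 0.916 to 1.26 holds 1.

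Of 12 heme and porphyrin transport genes, 3 were higher and 0 lower, with a median ratio of 1.39. The count of higher genes lies near the 18.5% over all genes. Tspo, an outer mitochondrial membrane protein that binds porphyrins, had the highest ratio, 2.88, from an FPKM of 114 to 327. Abcb6, named for porphyrin transport, had a ratio of 2.78. The porphyrin exporter Abcg2 had the lowest, 0.783. Flvcr1 and Flvcr2, heme exporter family genes listed in the table as Mfsd7b and Mfsd7c, had FPKM values of at most 2.07.

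Fech itself carries an iron-sulfur cluster and needs iron in the mitochondrial matrix. Of 11 genes of mitochondrial iron import and iron-sulfur assembly, 4 were higher and 0 lower, with a median ratio of 1.69. Those higher were Isca2 (2.84), Iscu (2.56), Isca1 (2.40) and Fdx1 (2.10), the last with an interval that holds 2.0. The iron carrier Slc25a37, or mitoferrin 1, had the lowest ratio, 0.790 (0.678 to 0.919), and Slc25a28, mitoferrin 2, had 1.51 (1.26 to 1.82). Cox10 and Cox15, which turn heme into the heme a of cytochrome oxidase, had ratios of 2.33 (2.04 to 2.66) and 2.05 (1.86 to 2.26). Hccs, which attaches heme to cytochromes c, had 1.34. In this list of 5 genes, 2 were higher and 0 lower, with a median ratio of 1.59 and the lowest ratio, 0.650, for Fdx2 (listed as Fdx1l).

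Of 24 genes for proteins that hold heme, 11 were higher, 4 were lower and 2 were listed at 0 at D0. The median ratio of the other 22 was 2.12. Those of the respiratory chain were higher, with ratios of 5.28 for Cyc1, 4.94 for Cycs, 2.996 for Sdhd and 2.43 for Sdhc. Catalase (Cat) had a ratio of 4.73, the cytochromes b5 Cyb5a (listed as Cyb5) and Cyb5b had 3.82 and 2.31, and Cyp51, of sterol synthesis, had 3.06. Cyp4b1 had 2.55 (1.80 to 3.65). Cybb and Cyba, both of the phagocyte oxidase, went opposite ways, with ratios of 5.06 and 0.489. The part of macrophages, whose markers are given above, was not tested for either gene. Tbxas1 had the highest ratio, 7.36 (2.54 to 29.1), on about 4 and 25 fragments. Myoglobin (Mb) and Cyp2e1 had an FPKM of 12.1 and 46.2 at D7 and were listed at 0 at D0. The 4 lower genes were Ptgs2 (0.0128), Ptgs1 (0.259), Ptgis (0.487) and Cyba (0.489). Ptgs1, Ptgs2, Ptgis and Tbxas1 encode enzymes of prostanoid synthesis, and Tbxas1 was among the higher genes. The intervals of Ptgis and Cyba hold 0.5.

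Among 14 transcription regulators named for Alas1 or Hmox1, 3 were higher and 1 was lower, with a median ratio of 1.05. Both counts lie near the 18.5% and 13.2% over all genes. Ppargc1a, the PGC-1α coactivator known to drive Alas1 in liver, had an FPKM of 0.0370 at D0, about 5 fragments, and 4.41 at D7, a ratio of 119 (50.7 to 368). Ppargc1b had a ratio of 16.5 (10.2 to 28.2) and Foxo1 of 5.08. Nrf1, the factor whose motif core is shown for Alas1, had FPKM values of 7.997 (D0) and 6.69 (D7), a ratio of 0.837 (0.736 to 0.9503). Bach1, the heme-binding repressor of Hmox1, had a ratio of 0.688 (0.631 to 0.7501), and Nfe2l2, which encodes the activator NRF2, of 0.834 (0.785 to 0.886). Hif1a, another factor known to act on Hmox1, was lower, with FPKM values of 102 (D0) and 34.8 (D7) and a ratio of 0.342. Of 12 other genes known as targets of NRF2, 4 were higher and 2 were lower, with a median ratio of 1.12, beside 18.5% and 13.2% over all genes. Nqo1 (0.285) and Txnrd1 (0.438) were lower, as was Hmox1. Those higher were G6pdx (7.51), Taldo1 (5.03) and Tkt (4.61), of the pentose phosphate pathway, and ferritin heavy chain Fth1 (2.46), while ferritin light chain Ftl1 had a ratio of 0.673.

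**Figure D4:**
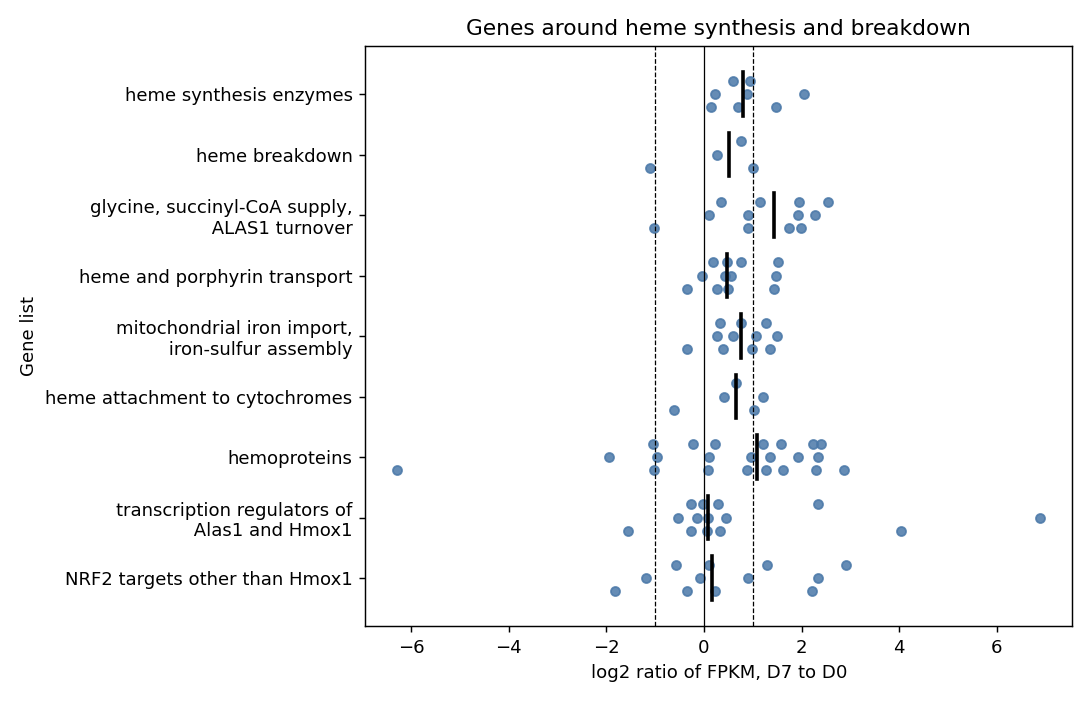
log2 ratio of FPKM at D7 to D0 for each gene above 0 in both libraries (points, spread vertically for sight only) in 9 gene lists; thick bars are list medians and dashed lines mark 2.0-fold. The medians lie between 0.08 for the transcription regulators and 1.44 for glycine, succinyl-CoA supply and ALAS1 turnover.

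The direction of the small ratios depended on the scaling between the libraries. With values under 0.01 raised to 0.01, and with both libraries then scaled to their own median, each log2 ratio of these genes changed by -0.35. Cpox, Ppox and Hmox2 then had ratios of 0.868, 0.912 and 0.944, below 1. Alas1 (3.26), Alad (2.18) and Hmox1 (0.365) stayed past 2.0-fold. The other scalings and pseudocounts tried left Cpox, Ppox and Hmox2 above 1.

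**Figure D5:**
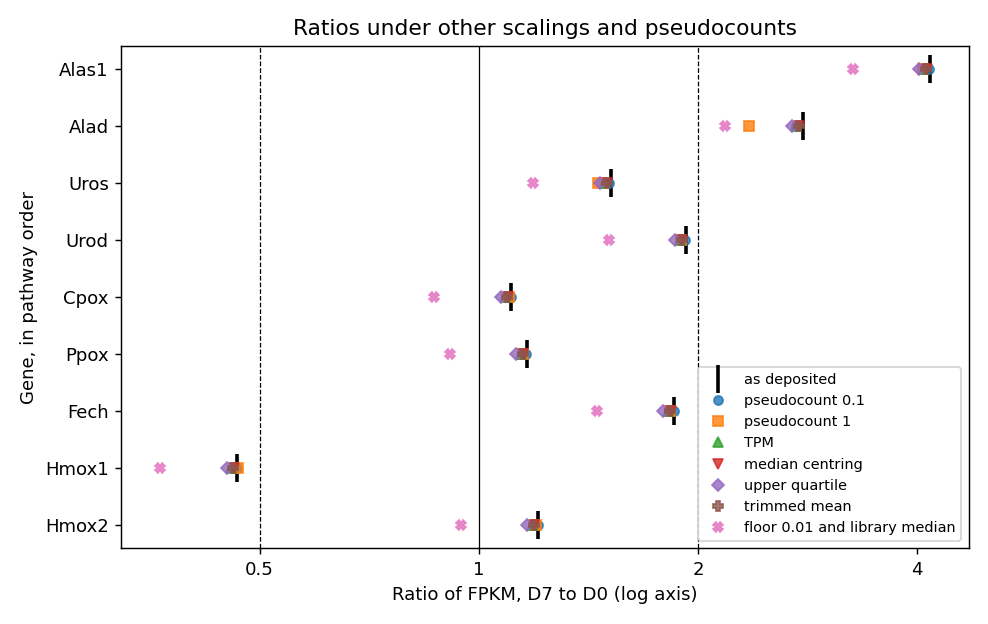
Ratio of FPKM at D7 to D0 (log axis) of the 9 genes as deposited (black bars) and under 7 other scalings or pseudocounts (coloured marks); dashed lines mark 0.5 and 2. The pink crosses, for the floor of 0.01 with the library median, lie to the left of the rest, and for Cpox, Ppox and Hmox2 they lie under 1.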

How the data were processed

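The authors filtered the reads, removed duplicates and rRNA, aligned the rest to mm10 and gene sequences with SOAP2 (the submitters' processing notes name Bowtie2), and deposited an FPKM for each gene in each library. Of 27324 rows, 3963 held no value. Ratios were taken from these deposited FPKM values without pseudocount or rescaling. To recover fragments behind a value, 602 single-exon genes (600 bp or longer) served, in which 100% of the 79 and 90 low values were whole within 0.1. A length correction and a denominator were chosen to make this share as large as possible, so the share is no separate check. The fitted denominators were 21471824 (D0) and 18266002 (D7) fragments. Lengths came from the named GENCODE M21 transcript inside the deposited locus, and fragment numbers of genes with several exons are approximate. Exact Clopper-Pearson intervals were used for ratios and exact Poisson intervals for levels. Older symbols in the gene lists were matched through the RefSeq gene table. Overlap with other genes was examined for the 9 members only.

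Members and lists were chosen with earlier results of these data known. Named were all members, list genes past 2.0-fold with an FPKM of at least 1, the highest and lowest of each list, a few further list genes chosen after their values were seen, and the 3 genes nearest to Alas1, Fech and Hmox1. Some list genes that this rule names are not reported here. The scripts were tested on simulated data. Software was matplotlib 3.10.9, scipy 1.17.1, pandas 2.3.3 and numpy 2.4.6 under Python 3.11.15.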

Additional observations from a re-analysis of the deposited data

How the results depend on the processing

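With 1 library per stage, leaving out a replicate was not possible. No paired analysis was possible because each stage has 1 library. Under TPM, scaling to the upper quartile, a trimmed mean or the median ratio, pseudocounts of 1 and 0.1, sums over rows of one symbol, and a floor of 0.01 with scaling to the library median, each of the 9 genes kept its side of 2.0-fold and 0.5. The range was 3.26 to 4.16 for Alas1, 2.18 to 2.78 for Alad and 0.365 to 0.468 for Hmox1. Against a threshold of 1.5, 5 genes were higher, and against 4.0, 1 was higher and 0 were lower. The median log2 ratio of the 7 synthesis genes was 0.89, and 0.54 with the floor of 0.01 and the library median. That setting also turned the medians of the transcription regulators and of the NRF2 targets to -0.28 and -0.19. Counting error limits Alad most, with about 69 fragments at D0, and how far separate cultures of a stage differ was not measured.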
